A study of Mus musculus with 6 samples.

Results

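The genes described here are 9 members of the TNF receptor superfamily, Tnfrsf1a, Tnfrsf1b, Tnfrsf4, Tnfrsf8, Tnfrsf9, Tnfrsf18, Tnfrsf25, Fas and Cd27, chosen by symbol from the 24047 rows of a mouse count table. All 9 had a row in that table and in a second table of FPKM values (fragments scaled to transcript length and library size, 24043 rows), and all 9 were among the 10454 genes that passed the filter on low counts. Tnfrsf8 passed it through the libraries in which it is high. The RNA came from spleen CD4 T cells of 7-week-old B6.129 mice, isolated as naive CD4+CD62L+ cells with a kit and labelled Th0 effector cells after culture. There were 3 libraries labelled Srsf1-cKO (genotype Srsf1-flox/flox dLck.Cre) and 3 libraries labelled WT. In these mice a Cre transgene under the distal Lck promoter, active in T cells, acts on floxed alleles of Srsf1, the gene of a serine/arginine-rich splicing factor. Both groups had the same culture, with anti-CD3 at 0.5 µg/mL and anti-CD28 at 1 µg/mL over 72 h, then PMA at 100 ng/mL with ionomycin at 1 µM over a further 4 h, so no library shows resting cells. The comparison asks how the labelled genotype bears on the mRNA of these receptors after activation.

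TNF receptor superfamily proteins are surface receptors with cysteine-rich repeats outside the cell that bind trimeric ligands of the TNF superfamily. Some, among them FAS, TNFR1 (Tnfrsf1a) and DR3 (Tnfrsf25), carry a death domain inside the cell, through which FAS triggers caspase 8 and cell death and TNFR1 builds a ubiquitin scaffold on RIPK1. The others, OX40 (Tnfrsf4), 4-1BB (Tnfrsf9), GITR (Tnfrsf18), CD27, CD30 (Tnfrsf8) and TNFR2 (Tnfrsf1b), recruit TRAF adaptors, signal to NF-kB and act in T cells mainly as costimulatory receptors. OX40, 4-1BB and CD30 appear on T cells after activation, while CD27 and TNFR2 are also carried by resting T cells, and regulatory T cells carry high GITR and OX40.

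In the RefSeq annotation of GRCm38.p6, 6 of the 9 are on chromosome 4, Tnfrsf1a and Cd27 are on chromosome 6 and Fas is on chromosome 19. Among protein-coding genes Tnfrsf8 and Tnfrsf1b are direct neighbours, as are Tnfrsf4 and Tnfrsf18, and 3 genes (Tuba3a, Ltbr and Scnn1a) lie between Cd27 and Tnfrsf1a. The 250 bases before the RefSeq start are printed below for Tnfrsf8 and Tnfrsf1a, the members that passed the test, and for Tnfrsf1b, the neighbour of Tnfrsf8, which did not pass. The windows are chr4:145315165-145315414 (minus strand), chr6:125349473-125349722 (plus strand) and chr4:145246871-145247120 (minus strand) of GRCm38.p6, in this order. Capitals mark matches on either strand to the NF-kB consensus, to the AP-1 motif TGANTCA or to TATAAA.
Tnfrsf8: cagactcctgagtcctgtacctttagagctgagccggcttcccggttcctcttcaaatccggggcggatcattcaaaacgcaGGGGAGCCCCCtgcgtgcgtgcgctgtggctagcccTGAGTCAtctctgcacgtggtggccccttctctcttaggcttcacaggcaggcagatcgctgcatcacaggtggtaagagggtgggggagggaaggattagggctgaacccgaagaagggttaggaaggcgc
Tnfrsf1a: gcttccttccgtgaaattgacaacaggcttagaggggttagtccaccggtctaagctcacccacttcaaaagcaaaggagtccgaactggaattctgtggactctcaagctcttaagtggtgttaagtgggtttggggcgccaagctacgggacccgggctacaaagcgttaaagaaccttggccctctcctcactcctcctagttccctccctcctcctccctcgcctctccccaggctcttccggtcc
Tnfrsf1b: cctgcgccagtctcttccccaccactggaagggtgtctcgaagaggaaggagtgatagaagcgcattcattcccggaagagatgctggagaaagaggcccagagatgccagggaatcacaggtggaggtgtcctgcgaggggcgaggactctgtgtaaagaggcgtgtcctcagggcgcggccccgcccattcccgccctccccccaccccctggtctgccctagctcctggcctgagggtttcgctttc
The Tnfrsf8 window held 2 overlapping matches to the NF-kB consensus, GGGGAGCCCC and GGGAGCCCCC, and a match to the AP-1 motif, TGAGTCA, which begins 132 bases before the start. Neither of the other windows shown held any of the 3 motifs. All 9 members matched an entry, with 11 windows in all, of which 3 held the NF-kB consensus (Tnfrsf8 and the second windows of Tnfrsf9 and Tnfrsf25) and 3 the AP-1 motif (Tnfrsf8, the second window of Tnfrsf9 and Fas), and none held TATAAA. Over all 32851 RefSeq windows of this length 7.25% held the NF-kB consensus, 6.75% the AP-1 motif and 12.4% TATAAA. A match is a description of the letters, since binding was not measured here.

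The libraries held 8573465 to 10184268 gene counts in the group labelled Srsf1-cKO and 7781283 to 9650828 in WT. Srsf1 itself, the targeted gene, did not fall: it had 4839, 4911 and 5022 counts in the libraries labelled Srsf1-cKO and 4889, 3520 and 3679 in WT (log2 fold change 0.06, SE 0.12, edgeR adjusted p = 0.78). Because that level does not bear out the labels, the groups are named by their labels, and every direction given is by label. Exon values, which could show a deleted exon, were not analysed here. The number of splices per 100 uniquely mapped reads was 26.9 to 27.1 in the libraries labelled Srsf1-cKO and 27.9 to 30.5 in WT, without overlap. The markers of CD4 T cells were present in every library (Cd4 389 ± 56.9 CPM in the libraries labelled Srsf1-cKO and 465 ± 53.5 CPM in WT, SD, n = 3 each). Of the 8 tested 1 rose, Cd3g, and the 7 red blood cell markers had 0 counts. CPM here are counts scaled to one common library size after TMM adjustment of each library (trimmed mean of M-values). Summed levels of B cell, macrophage, dendritic cell and NK cell markers were higher in the libraries labelled Srsf1-cKO, as given below. In bulk RNA a change in the share of a cell type and a change in RNA per cell cannot be told apart.

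Of the 9 receptor genes 1 rose and 1 fell at an edgeR adjusted p under 0.05. Tnfrsf8, which encodes CD30 and is the least abundant of the set, rose 7.13-fold (95% confidence interval 4.04 to 12.6), and Tnfrsf1a, which encodes TNFR1, fell by 33.4% (95% confidence interval of the change -47.3% to -15.9%). The 2 called members are 22.2% of the 9, while 18.4% of all genes tested were called (8.9% higher and 9.5% lower), so the share is near that background. Of the 2, Tnfrsf8 passed the count filter through the libraries in which it is high, so no more is read from this share. The CPM ranges of the groups were apart for 3 members (33.3%), Tnfrsf8, Tnfrsf1a and Tnfrsf4, and for 39.4% of all genes tested. On the log2(FPKM + 1) scale limma called 3 of the 9 (33.3%), these same genes in the same libraries, and 18.7% of all genes tested. Tnfrsf8 passed the FPKM filter only through the libraries labelled Srsf1-cKO, so these shares are not read against each other. The count was 0 in each fit that left out a library labelled Srsf1-cKO. The median log2 fold change of the 9 was 0.09, and that of all genes tested was 0.01.

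**Figure D1:**
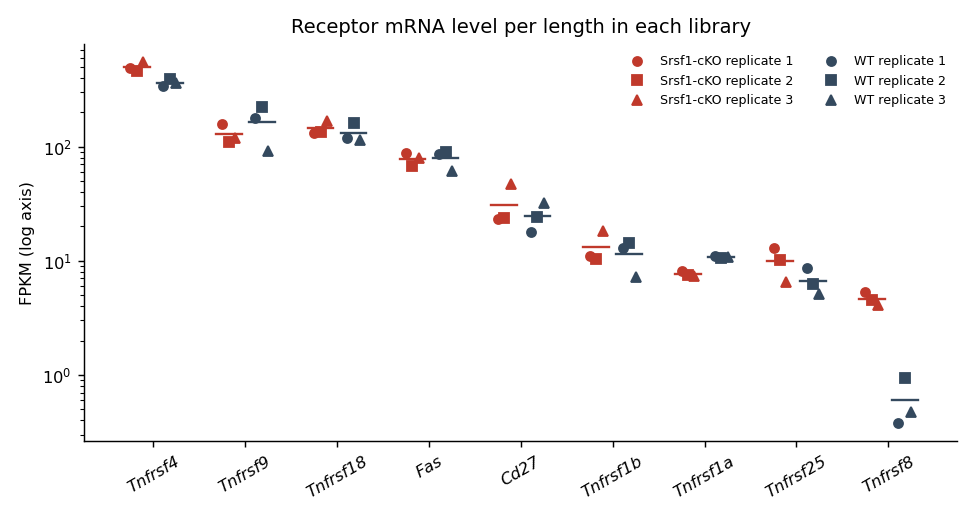
FPKM of each receptor gene (log axis) in the 3 libraries labelled Srsf1-cKO (red, left of each pair) and the 3 WT libraries (dark, right), with the mean as a line. Tnfrsf4 is highest in all 6 libraries, and Tnfrsf8 lies between 4.06 and 5.29 FPKM in the libraries labelled Srsf1-cKO and below 1 FPKM in WT.

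Per length, Tnfrsf4 was the most abundant receptor mRNA, at 499 ± 47.2 FPKM in the libraries labelled Srsf1-cKO and 365 ± 26.9 FPKM in WT (SD, n = 3 each). It encodes OX40. Tnfrsf18 stood at 145 ± 20.0 FPKM in the libraries labelled Srsf1-cKO and 132 ± 26.0 FPKM in WT, and Tnfrsf9 at 129 ± 25.1 and 164.5 ± 66.9 FPKM in the same order of groups. The ranges of these 2 genes overlapped in both groups, so they did not differ beyond their spread. Fas came next at 78.3 ± 9.81 FPKM in the libraries labelled Srsf1-cKO and 79.0 ± 15.5 FPKM in WT, then Cd27 at 31.1 ± 13.5 and 24.8 ± 7.11 FPKM. Each of these stood apart from its neighbours above and below in both groups. The order of levels also rests on the lengths behind FPKM, whose scale did not match annotated lengths for Tnfrsf1b and Tnfrsf8, as given below. Below Cd27 the order depended on the group. In the libraries labelled Srsf1-cKO it was Tnfrsf1b (13.2 ± 4.28 FPKM), Tnfrsf25 (9.92 ± 3.29), Tnfrsf1a (7.67 ± 0.417) and Tnfrsf8 (4.62 ± 0.621), where the range of Tnfrsf25 overlapped those of Tnfrsf1b and Tnfrsf1a, which lay apart from each other. In WT it was Tnfrsf1b (11.5 ± 3.78 FPKM) and Tnfrsf1a (10.8 ± 0.269), which overlapped, then Tnfrsf25 (6.67 ± 1.80) and Tnfrsf8 (0.597 ± 0.306), each apart from the gene above it.

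The sole rise past the threshold was that of Tnfrsf8, whose product CD30 is the receptor for CD30 ligand and is carried by some activated T and B cells. Its counts were 110, 82 and 91 in the libraries labelled Srsf1-cKO and 8, 17 and 8 in WT, or 11.9, 9.15 and 8.54 CPM against 0.884, 2.21 and 1.06 CPM. Every library labelled Srsf1-cKO lay above every WT library, and WT replicate 2 was the highest of its group. The log2 fold change was 2.83 (SE 0.36, edgeR adjusted p = 0.0049), and it passed in each of the 6 fits that left out a library, with log2 fold changes of 2.56 to 3.33 and edgeR adjusted p of 0.00393 to 0.0407. FPKM were 5.29, 4.50 and 4.06 in the libraries labelled Srsf1-cKO and 0.376, 0.947 and 0.469 in WT (log2 fold change of FPKM + 1 of 1.83, SE 0.18, limma adjusted p = 0.00454). The pseudocount of 1 makes the fold smaller at this level. Tnfrsf8 passed the FPKM filter only through the libraries labelled Srsf1-cKO. Tnfrsf1b, the neighbouring gene, had 11.0, 10.4 and 18.1 FPKM in the libraries labelled Srsf1-cKO and 12.9, 14.3 and 7.19 FPKM in WT. The FPKM ratio of Tnfrsf8 to Tnfrsf1b within a library was 0.224 to 0.479 in the libraries labelled Srsf1-cKO and 0.0292 to 0.0660 in WT, without overlap (no test was made of the ratio). The size of this ratio depends on the lengths behind FPKM. The ratio of raw counts was 0.0729 to 0.164 in the libraries labelled Srsf1-cKO and 0.00952 to 0.0232 in WT.

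Summed markers of several other cell types were also higher in the libraries labelled Srsf1-cKO, while those of CD8 T cells were lower. Within that group the library with the highest sum differed between cell types. The macrophage and NK cell sums were highest in replicate 3, and the B cell and dendritic cell sums in replicate 2. The regulatory T cell and CD8 T cell sums were highest in replicate 1, as was Tnfrsf8. Each order rests on 3 libraries, and its relation to Tnfrsf8 was not tested. Summed over 7 B cell markers the level was 9.39 to 27.2 CPM in the libraries labelled Srsf1-cKO and 1.32 to 8.71 CPM in WT, with 1 of 5 tested genes, Cd79a, past the threshold. The 7 macrophage and monocyte markers in the table summed to 10.4 to 24.4 and 2.90 to 6.85 CPM in the same order of groups (1 of 3 tested rose, Lyz2), the 7 dendritic cell and MHC class II markers to 125 to 156 and 70.3 to 99.4 CPM (2 of 5 tested rose, H2-Aa and Cd74, while H2-Ab1 and Zbtb46 had log2 fold changes of -0.29 and -0.62 and did not pass), and the 6 NK cell markers to 9.40 to 26.2 and 0.528 to 2.08 CPM (2 of 2 rose, Klrk1 and Klrd1). The NK cell genes Ncr1 and Klra8 had 0 counts in all libraries. These calls are by edgeR. By DESeq2 and by limma-voom 0 macrophage and monocyte markers rose, while 1 B cell, 3 dendritic cell and MHC class II and 2 NK cell markers did. The 2 CD8 T cell markers summed to 16.7 to 22.8 CPM in the libraries labelled Srsf1-cKO and 24.6 to 42.5 CPM in WT, and the 1 that was tested, Cd8b1, did not pass. The 7 regulatory T cell markers summed to 4948 to 5859 CPM in the libraries labelled Srsf1-cKO and 3944 to 4340 CPM in WT, of which Il2ra made up most (4905 ± 474 against 3801 ± 111 CPM, edgeR adjusted p = 0.0641). In that list Foxp3 rose (31.3 ± 8.50 against 10.7 ± 1.96 CPM, edgeR adjusted p = 0.00761) while Ikzf4 fell (5.86 ± 0.603 against 13.0 ± 5.96 CPM, edgeR adjusted p = 0.0494). The call of Ikzf4 was close to the threshold, and its level in WT replicate 3 was 6.47 CPM. Of this list DESeq2 called 2 genes lower and limma-voom 0. The part of these cells in the level of Tnfrsf8 or of any other receptor was not tested.

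**Figure D2:**
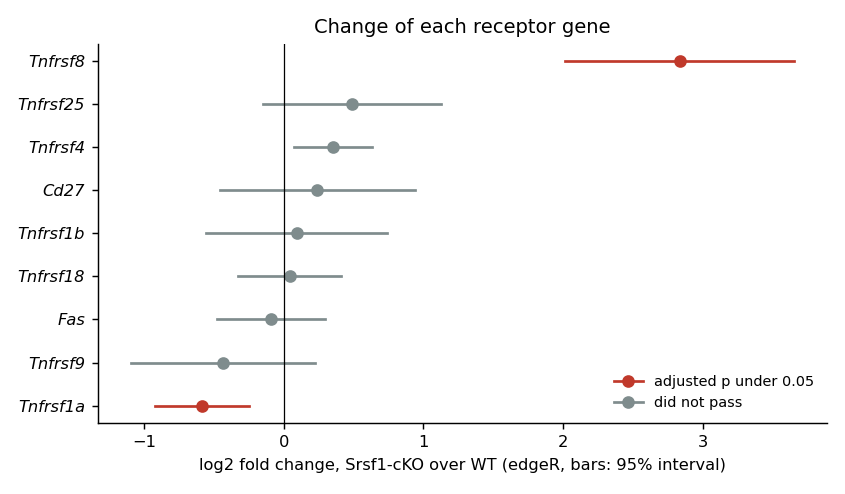
Log2 fold change of each receptor gene, libraries labelled Srsf1-cKO over WT, from edgeR with its 95% interval. Tnfrsf8 (2.83) and Tnfrsf1a (-0.59) passed at an adjusted p under 0.05 (red), and the intervals of 6 of the other 7 genes hold 0.

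The sole fall past the threshold was that of Tnfrsf1a, the gene of TNFR1, the death domain receptor for TNF and lymphotoxin alpha. It had 22.9, 20.0 and 19.8 CPM in the libraries labelled Srsf1-cKO and 32.8, 30.3 and 31.0 CPM in WT. This is the tightest of the 9 genes within both groups, with a ratio of highest to lowest library of 1.16 in the libraries labelled Srsf1-cKO and 1.08 in WT, and the groups did not overlap. The log2 fold change was -0.59 (SE 0.15, edgeR adjusted p = 0.0289). The size was -0.66 to -0.55 when a library was left out, but the call was lost in 4 of the 6 fits, with edgeR adjusted p of 0.0567, 0.131 and 0.0594 without replicate 1, 2 and 3 labelled Srsf1-cKO, and 0.11 without WT replicate 1. On the log2(FPKM + 1) scale the log2 fold change was -0.45 (SE 0.12, limma adjusted p = 0.0395), and it did not pass there without any single one of the 6 libraries (limma adjusted p 0.0541 to 0.156).

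Tnfrsf1b, the gene of TNFR2, the other receptor for TNF, had 72.3, 64.8 and 117 CPM in the libraries labelled Srsf1-cKO and 92.9, 95.5 and 50.2 CPM in WT. The groups overlapped, with replicate 3 the highest of the first group and the lowest of the second. Its log2 fold change was 0.09 (95% confidence interval -0.56 to 0.74, edgeR adjusted p = 0.843). The FPKM ratio of Tnfrsf1a to Tnfrsf1b within a library was 0.738, 0.719 and 0.410 in the libraries labelled Srsf1-cKO and 0.860, 0.735 and 1.51 in WT, and these ranges overlapped.

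The most abundant costimulatory receptors did not pass in the counts. Tnfrsf4 had 666, 606 and 743 CPM in the libraries labelled Srsf1-cKO and 508, 551 and 521 CPM in WT, without overlap, and its log2 fold change of 0.35 (SE 0.12, 95% confidence interval 0.07 to 0.63) had edgeR adjusted p = 0.0781. It passed on the FPKM scale, with 487, 459 and 551 FPKM against 338, 391.7 and 364 FPKM in WT (log2 fold change of FPKM + 1 of 0.45, SE 0.12, limma adjusted p = 0.0348), and in counts scaled by library size alone (0.45, edgeR adjusted p = 0.0354). The median over all genes also moved in both, to 0.10 in FPKM and 0.11 with library size alone, against 0.01 with TMM, and 65.9% and 64.1% of all calls were higher, against 48.4% with TMM. The FPKM call was lost without replicate 1, 2 or 3 labelled Srsf1-cKO (limma adjusted p = 0.0879, 0.103 and 0.0741) and without WT replicate 1 (0.134). Tnfrsf18, its neighbour in the genome, had 153, 148 and 190 CPM in the libraries labelled Srsf1-cKO and 148, 191 and 138 CPM in WT (log2 fold change 0.04, 95% confidence interval -0.33 to 0.41, edgeR adjusted p = 0.881). The FPKM ratio of Tnfrsf18 to Tnfrsf4 was 0.270, 0.293 and 0.304 in the libraries labelled Srsf1-cKO and 0.349, 0.413 and 0.317 in WT, and was lower in every library labelled Srsf1-cKO than in any WT library (no test was made of the ratio). In GENCODE M21 (GRCm38) an antisense gene, Gm16008, overlaps Tnfrsf18, and the sources used here do not give whether the authors' counting used the strand.

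Tnfrsf9, the gene of 4-1BB, had 403, 272 and 308 CPM in the libraries labelled Srsf1-cKO and 503, 584 and 245 CPM in WT. The WT libraries differed 2.39-fold between highest and lowest, the widest such ratio in WT among the 8 genes other than Tnfrsf8, and WT replicate 3 was below all libraries of the other group. The log2 fold change was -0.44 (SE 0.29, edgeR adjusted p = 0.316). Without WT replicate 3 it was -0.75 (edgeR adjusted p = 0.0213), and it did not pass in the other 5 fits that left out a library. Camta1 overlaps Tnfrsf9 on the other strand in GENCODE M21.

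**Figure D3:**
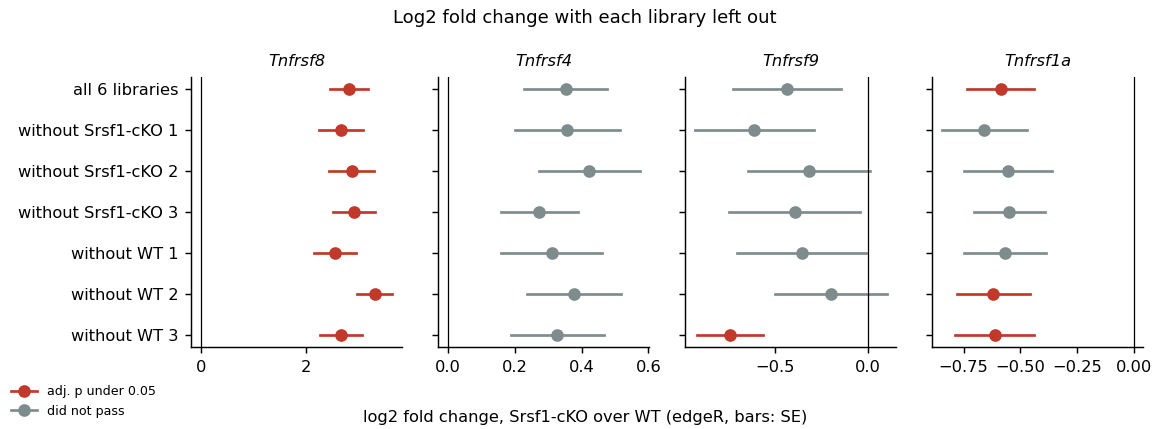
Log2 fold change (libraries labelled Srsf1-cKO over WT, bars: SE) of 4 receptor genes in edgeR with all 6 libraries and with each left out. Tnfrsf8 passes in all fits, Tnfrsf1a loses its call in 4 of the 6 with little change in size, Tnfrsf9 passes without WT replicate 3, and Tnfrsf4 passes in none.

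Cd27, whose product supports survival of primed T cells, had 39.3, 39.5 and 80.9 CPM in the libraries labelled Srsf1-cKO and 34.6, 42.1 and 58.9 CPM in WT. Replicate 3 was the highest of each group, and the groups overlapped (log2 fold change 0.24, 95% confidence interval -0.46 to 0.94, edgeR adjusted p = 0.611). Vamp1 overlaps Cd27 on the other strand in GENCODE M21. Tnfrsf25, the gene of the death receptor DR3, had 26.6, 20.98 and 13.4 CPM in the libraries labelled Srsf1-cKO and 18.6, 13.4 and 11.4 CPM in WT, where the lowest library of the first group lay within the WT range (log2 fold change 0.49, 95% confidence interval -0.15 to 1.12, edgeR adjusted p = 0.251). Fas, the death receptor that deletes repeatedly stimulated T cells, had 155, 116 and 136 CPM in the libraries labelled Srsf1-cKO and 158, 162 and 114 CPM in WT, and the groups overlapped. Its log2 fold change was -0.09 (95% confidence interval -0.48 to 0.30, edgeR adjusted p = 0.737).

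Together the 9 genes summed to 924, 827 and 1001 FPKM in the libraries labelled Srsf1-cKO and to 773, 922 and 688 FPKM in WT, and these sums overlapped. Tnfrsf4 made up 52.7%, 55.6% and 55.1% of the sum in the libraries labelled Srsf1-cKO and 43.7%, 42.5% and 52.9% in WT. Tnfrsf9 made up 17.0%, 13.2% and 12.0% against 23.3%, 24.1% and 13.3% in WT. For Tnfrsf4, WT replicate 3 lay within the range of the libraries labelled Srsf1-cKO, as it did for Tnfrsf9, while the other 2 WT libraries lay outside. The shares of Tnfrsf8 (0.406% to 0.572% against 0.0486% to 0.103% in WT) and Tnfrsf1a (0.741% to 0.901% against 1.14% to 1.57% in WT) did not overlap. The CPM ranges of both genes were also apart, as were those of 39.4% of all genes tested. These shares are descriptions, with no test.

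**Figure D4:**
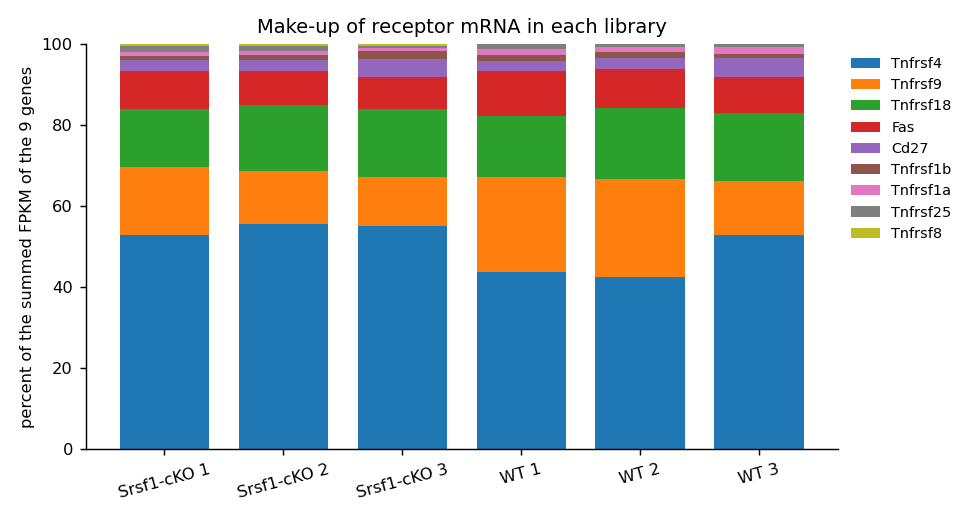
Percent of the summed FPKM of the 9 receptor genes held by each gene, for the 3 libraries labelled Srsf1-cKO (left) and the 3 WT libraries (right). Tnfrsf4 is the largest part in every library, from 42.5% in WT replicate 2 to 55.6% in replicate 2 labelled Srsf1-cKO.

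SRSF1 acts in splicing, and several of these receptors have transcripts of different length in GENCODE M21, such as 9 for Tnfrsf9 and 6 each for Tnfrsf1a, Tnfrsf18 and Cd27. Isoform values were not analysed here, but the ratio of a gene's scaled counts to its FPKM is an apparent transcript length, which moves when reads shift between isoforms of unequal length. It was fitted for 8 members (Tnfrsf8 had under 10 counts in WT replicates 1 and 3) among 9207 genes. For Tnfrsf25, the member with the largest difference on the log2 scale (0.02), it was 2.13 ± 0.0508 kb in the libraries labelled Srsf1-cKO and 2.09 ± 0.0734 kb in WT (SD, n = 3 each). For Tnfrsf1a it was 2.82 ± 0.0301 kb in the libraries labelled Srsf1-cKO and 2.80 ± 0.0230 kb in WT. No member passed (0 of 8, limma adjusted p = 0.9999 for each, with 0 of 8 at an unadjusted p under 0.05), and the 95% limits of all 8 log2 differences lay between -0.06 and 0.09. Of all genes fitted 0.206% passed. This ratio does not see changes between isoforms of equal length. Its scale also did not match annotated lengths, so the kb values are not measured lengths. In the libraries labelled Srsf1-cKO it was 6.65 kb for Tnfrsf1b and 2.20 kb for Tnfrsf8. The 1 protein-coding transcript of each in GENCODE M21 has 3.82 and 3.41 kb. Only the difference of the ratio between groups was tested. FPKM levels of different genes, and their ratios, depend on the same scale.

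The other genes of the pathway were taken from lists of receptors, ligands, adaptors, death domain pathway genes, shedding genes and NF-kB genes. The NF-kB list holds mainly subunits, inhibitors and kinases of NF-kB, not its target genes at large. Of 19 other receptors of the superfamily 13 were tested, of which 1 rose and 2 fell (median log2 fold change 0.27). These are 23.1% of those tested, near the 18.4% called over all genes. DESeq2, limma-voom and the replicate block each gave 2 that rose, the block 3 that fell, and the fit with no filter 3 that rose. Tnfrsf21, the gene of the death domain receptor DR6, rose to 14.2 ± 3.98 CPM in the libraries labelled Srsf1-cKO, against 2.14 ± 1.10 CPM in WT (log2 fold change 2.72, SE 0.38, edgeR adjusted p = 0.00663). Tnfrsf12a, the gene of the TWEAK receptor, fell (2.70 ± 0.748 against 9.15 ± 3.53 CPM, edgeR adjusted p = 0.0151), as did Tnfrsf26, a mouse receptor gene that is also the most abundant tested by CPM in this list (67.4 ± 17.8 against 139 ± 40.5 CPM, edgeR adjusted p = 0.021). The 2 falls did not pass without replicate 2 labelled Srsf1-cKO or without WT replicate 1, 1 passed without replicate 3 labelled Srsf1-cKO, and without WT replicate 3 there were 2 that rose and 3 that fell. Tnfrsf21 passed in all 6 fits that left out a library. Tnfrsf17, Ngfr and Edar had 0 counts, and Ltbr, which lies between Cd27 and Tnfrsf1a, had at most 2 counts in a library.

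Of the 9 genes of the members' ligands 7 were tested, of which 1 rose (14.3% called) and 0 fell (1 fell by DESeq2, 0 by limma-voom, and 1 was lower at an unadjusted p under 0.05 in edgeR). The rise was that of Tnfsf8, the gene of CD30 ligand and the most abundant of the list, with 5987, 7821 and 9686 counts in the libraries labelled Srsf1-cKO and 4486, 2539 and 4013 counts in WT (810 ± 142 against 452 ± 107 CPM, log2 fold change 0.84, SE 0.20, edgeR adjusted p = 0.0251). It did not pass without replicate 2 (0.0983) or 3 (0.0662) labelled Srsf1-cKO or without WT replicate 1 (0.0807), and 1 ligand fell without WT replicate 3. The gene of CD30 ligand and that of its receptor thus both rose. The ligand genes of GITR and CD27 were not tested, with 0 Tnfsf18 counts in all libraries and 4 to 16 Cd70 counts in each. The median log2 fold change of the tested ligands was -0.19.

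Of 24 tested genes of TRAF and ubiquitin adaptors 5 fell and 0 rose by edgeR (6 fell by DESeq2 and 5 by limma-voom, 0 rose by either, and 2 were higher and 8 lower at an unadjusted p under 0.05). The called genes are 20.8% of the list, all of them lower, against 18.4% of all genes called and 9.5% called lower, so the share called in either direction is near the background. The median log2 fold change of the list was -0.30, and that of all genes tested was 0.01. Tnip1, whose product restrains NF-kB with A20, fell to 96.6 ± 8.13 CPM in the libraries labelled Srsf1-cKO, against 210 ± 39.1 CPM in WT (log2 fold change -1.12, SE 0.16, edgeR adjusted p = 0.00667), and passed in all 6 fits that left out a library. Traf6 (218 ± 17.9 against 328 ± 53.5 CPM, edgeR adjusted p = 0.0273), Traf4 (72.4 ± 12.3 against 113 ± 10.9 CPM, edgeR adjusted p = 0.0252) and Ripk1, the kinase gene of the TNFR1 scaffold (72.9 ± 9.15 against 99.8 ± 0.770 CPM, edgeR adjusted p = 0.0468) also fell. Ripk1 did not pass in any of the 6 fits that left out a library, and Traf4 and Traf6 each passed in 3 of the 6. Traf6 also did not pass with library-size scaling (edgeR adjusted p = 0.0514) or in FPKM (limma adjusted p = 0.0624). Nor did Ripk1 (edgeR adjusted p = 0.0928 and limma adjusted p = 0.1265). Ripk1 further did not pass with upper-quartile scaling (edgeR adjusted p = 0.0516) or with no filter (edgeR adjusted p = 0.0518). The fifth, Rnf31, a subunit gene of the linear ubiquitin ligase, was chosen after its value was seen (22.8 ± 2.66 against 33.8 ± 4.35 CPM, edgeR adjusted p = 0.0478). The most abundant, Tnfaip3, the gene of A20, did not pass (527 ± 22.8 against 686 ± 292 CPM, edgeR adjusted p = 0.361, and 0.0132 without WT replicate 3). The count of falls was 3 with upper-quartile scaling, 2 with library-size scaling and 2 in FPKM. It was 1 without replicate 1 or 2 labelled Srsf1-cKO or without WT replicate 1, 3 without replicate 3 labelled Srsf1-cKO or WT replicate 2, and 7 without WT replicate 3. Without WT replicate 2, 1 gene rose.

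**Figure D5:**
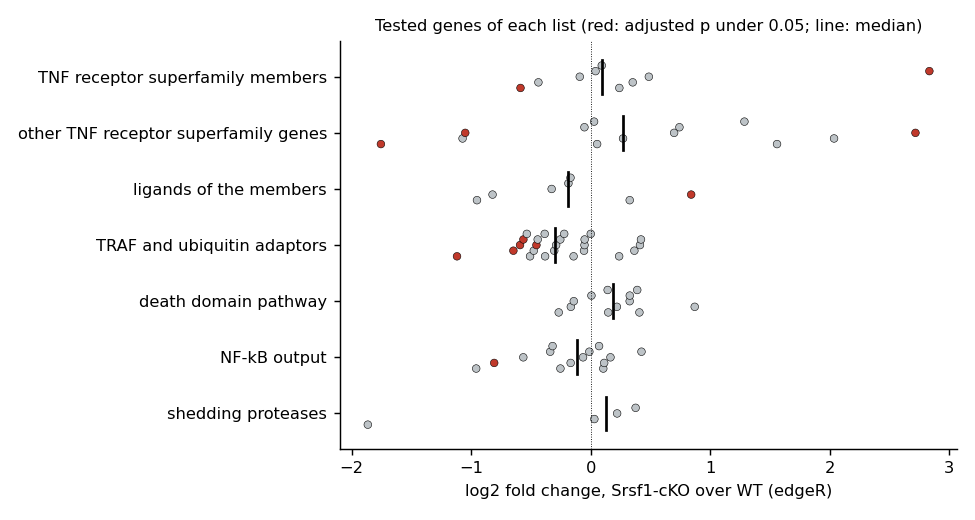
Log2 fold change (libraries labelled Srsf1-cKO over WT, edgeR) of every tested gene of the 9 receptors and of the other lists, with the median of each list as a line. Called genes are red, and the 5 in the adaptor list are all below 0.

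Genes of the death domain pathway and of shedding did not pass. Of 12 tested death domain pathway genes (median log2 fold change 0.18) 0 were called by edgeR, DESeq2 or limma-voom, with 1 higher at an unadjusted p under 0.05, and Cflar, the gene of the caspase 8 inhibitor cFLIP and the most abundant, stood at 905 ± 101 CPM in the libraries labelled Srsf1-cKO and 1016 ± 117 CPM in WT (edgeR adjusted p = 0.428). With WT replicate 3 left out, with library-size scaling and in FPKM 1 of them rose. Of 4 genes of shedding proteases and their regulators (median 0.13) 0 were called by edgeR (1 lower by DESeq2, and 1 higher and 1 lower at an unadjusted p under 0.05). The most abundant was Adam10 (227 ± 18.1 against 195 ± 57.3 CPM, edgeR adjusted p = 0.449, and 0.0413 without WT replicate 3). In this list 1 gene fell without WT replicate 2, with another scaling (RLE), with no filter and with the replicate block. Of 14 NF-kB genes (median -0.12) 1 fell and 0 rose (by DESeq2 2 fell and 0 rose, by limma-voom 1 fell and 0 rose, and 1 was higher and 2 were lower at an unadjusted p under 0.05), or 7.14% called. Rel, the gene of c-Rel, the NF-kB subunit of activated lymphocytes, stood at 249 ± 51.5 CPM in the libraries labelled Srsf1-cKO and 435 ± 21.2 CPM in WT (log2 fold change -0.81, SE 0.16, edgeR adjusted p = 0.013), and Nfkb1, the most abundant, did not pass (2286 ± 299 against 2114 ± 262 CPM, edgeR adjusted p = 0.614). No NF-kB gene fell without replicate 2 labelled Srsf1-cKO or WT replicate 1 (0 each), and 2 fell without WT replicate 2 or 3.

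By profile, genes among the most like Tnfrsf8 were Mllt11 (43.9 CPM in the libraries labelled Srsf1-cKO and 8.48 CPM in WT) and P2ry1, an ADP receptor gene (16.7 CPM in the libraries labelled Srsf1-cKO and 1.78 CPM in WT). Likeness was the root mean square difference of the 6 log2 CPM values, each centred on the gene's mean. It was 0.373 for Mllt11 and 0.399 for P2ry1, against a median of 1.43 over 8132 genes. Those most like Tnfrsf1a were Ppp1r12c (0.0265), Vasp (0.0316) and Ensa (0.0357), against a median of 0.375. Each median depends on the member's own difference between groups, and the genes were picked for the smallest distance in these same libraries. The distances thus show little beyond a like change between groups. The log2 fold change was 2.37 for Mllt11, 3.24 for P2ry1, -0.62 for Ppp1r12c, -0.54 for Vasp and -0.58 for Ensa.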

How the data were processed

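RNA of 6 libraries (3 per labelled genotype) was sequenced by the authors as single-end reads of 75 bp from a stranded mRNA kit, per the labels and design text. The deposited count table holds raw gene counts from STAR alignments (2.4.2a, per the file headers) to mm9, per the submitters' processing notes. The second deposited table is named as counts but holds FPKM values, read from its values, and the notes name Cufflinks. The third is the STAR alignment report. For the annotation, the counting program and use of the strand, the sources used here give nothing, so no coordinates of the files are printed. The report's mixed metrics (a value of another unit per row) were deposited by the authors.

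Counts were tested with edgeR 4.0.16 (quasi-likelihood test, filterByExpr, TMM, genotype only, two-sided, Benjamini-Hochberg over all 10454 genes tested, threshold 0.05) in R 4.3.3. For log2(FPKM + 1) the tool was limma 3.58.1 (trended prior), over 9617 genes at 1 FPKM or more in at least 3 libraries, and for count to FPKM ratios the same over 9207 genes with at least 10 counts and 0.5 FPKM in every library. The fits were tested on simulated data. CPM use TMM-scaled library sizes. The design text gives 3 mice for each genotype. Within groups, each of the 6 library pairs differed beyond sampling noise (chi-square per degree of freedom 6.25 to 37.5). Named genes are the 9 members, up to 4 called genes in each direction and the most abundant tested gene of each pathway list, and the 3 most similar profiles of the called members with the largest rise and fall. One gene that this rule names is not reported here. Members and lists were chosen with earlier results of these data known. Alternatives were other scalings and filters, DESeq2 1.42.0, limma-voom, other pseudocounts, a replicate block and each library left out. Promoter letters are from RefSeq (GRCm38.p6). Columns of per-sample values not used numbered 0.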

Additional observations from a re-analysis of the deposited data

How the results depend on the processing

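Tnfrsf8 kept its direction and its call in all 15 alternatives on counts (log2 fold change 2.56 to 3.33, adjusted p 6.66e-09 to 0.0407). Tnfrsf1a kept its direction in all 15 (-0.66 to -0.48) and its call in 11, and lost it in the 4 fits without a library named in the report. The number of genes called over all was 1923 and ranged from 195 to 1989 with a library left out: 1121 without replicate 1 and 234 without replicate 2 labelled Srsf1-cKO, and 195 without WT replicate 1. Members higher numbered 2 instead of 1 with library-size scaling and in the FPKM table, where Tnfrsf4 passed, and members lower ranged from 0 to 2 with a library left out. Members called in FPKM numbered 3, and 1 with no filter on FPKM (adjusted p 0.0534 for Tnfrsf1a and 0.0576 for Tnfrsf4), 2 with a replicate block, where Tnfrsf1a had adjusted p 0.0509, and 0 to 3 with a library left out. The count was 0 in each of the 3 fits that left out a library labelled Srsf1-cKO, where Tnfrsf8 was under the filter and Tnfrsf1a and Tnfrsf4 did not pass, and 1 without WT replicate 1, where Tnfrsf8 alone passed.

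Genes near 0 turned sign. With library-size scaling Fas stood at 0.011 instead of -0.09. With a library left out, log2 fold changes ranged from -0.21 to 0.26 for Tnfrsf1b (negative without replicate 3 of either group), from -0.079 to 0.19 for Tnfrsf18 (negative without replicate 3 of either group or WT replicate 1), from -0.25 to 0.0098 for Fas (positive without replicate 2 labelled Srsf1-cKO) and from -0.20 to 0.46 for Cd27 (negative without replicate 3 labelled Srsf1-cKO). On the FPKM scale the ranges were -0.084 to 0.37 for Tnfrsf1b, -0.17 to 0.10 for Fas and -0.050 to 0.47 for Cd27. The cause was not tested.

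By the labels, libraries of the same number have only that number in common, and whether the numbers pair the mice is not stated. Deviations from the group means correlated at 0.01 to 0.27 between libraries of the same number. Between libraries of different number they correlated at -0.32 to 0.20. Not every library correlated best with its own number. The replicate block on counts gave 2270 called genes, against 1923 without it, and 1 member higher and 1 lower. A batch shared by libraries of the same number was not tested.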
